A study of Mus musculus with 18 samples.

Results

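The 28 genes described here code for the enzymes that build cholesterol and its prenyl branch, for SREBP2 and the proteins that control it, and for a carrier and a storage enzyme of cholesterol (Stard4 and Soat1). They were chosen by symbol as genes of the pathway, with earlier results of these data known, and matched to the Ensembl identifiers of the deposited counts on GRCm38. All 28 were among the 49315 genes counted. RNA was sequenced from bone marrow-derived macrophages (BMDMs) with 3 biological replicates in each of 6 groups, 18 libraries in all. The groups are labelled WT or HDAC3 KO, which the study calls HDAC3 f/f and M-HDAC3-/-, and each genotype was left with no treatment or was cocultured with non-apoptotic cells (NACs) or apoptotic cells (ACs). In the KO mice exon 7 of Hdac3 is flanked by loxP sites, and Cre is driven by Lyz2, the lysozyme 2 gene, so deletion depends on Cre activity in myeloid cells. Both kinds of added cell were K562, which is a human leukemia line, and apoptosis was induced by 15 min of UVB with 2 h of culture before use. Macrophages were cocultured for 45 min, washed and kept for 5 h before RNA isolation. All 6 groups were grown in medium conditioned by L929 cells, and the age of the mice is not given in the sources used here.

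Total counts per library ranged from 4704491 to 26421267. KO untreated replicate 1 stood apart, with the smallest total and with 86.4% of its counts on protein-coding genes, against 94.5% to 98.3% in the other 17 libraries, so the calls of the 28 genes that rest on it are given with and without it. Hdac3, counted over the whole gene, lay between 3.38 and 48.8 CPM (counts scaled to a common library total) in the WT libraries and between 4.66 and 74.6 CPM in the KO libraries, and its level did not separate the labels. Because only an exon is removed, a count over the whole gene is a weak check, and genotype below means the label. All 8 macrophage markers were detected in every library, with summed levels of 5950 to 19710 CPM. The 12 mouse orthologs of genes that mark K562 and erythroid cells summed to 26.1 to 100.1 CPM. Without added cells the sum was 60.1 to 78.2 CPM in WT and 26.1 to 67.4 CPM in KO. In the cocultured libraries it was 29.4 to 100.1 CPM, so it is not a measure of the added human cells.

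Cells make cholesterol from acetyl-CoA through mevalonate, farnesyl diphosphate, squalene and lanosterol, and a side branch yields the prenyl groups that anchor small GTPases to membranes. The transcription factor SREBP2, coded by Srebf2, is held in the endoplasmic reticulum by INSIG proteins through its escort SCAP while sterols are plentiful. When sterols fall, SCAP carries SREBP2 to the Golgi, where the proteases coded by Mbtps1 and Mbtps2 release its active part. A macrophage that engulfs another cell takes up that cell's cholesterol, which is why these genes are of interest in efferocytosis.

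SREBP2 binds sterol regulatory elements, often beside CCAAT boxes bound by the factor NF-Y. RefSeq promoter windows of 300 bases (250 before to 50 after the start site, GRCm38.p6) were matched for 24 of the 28 genes, 30 windows in all, and a gene was counted when any of its windows held a motif. There was none for Fdft1, Fdps, Sqle and Stard4. The letters TCACNCCAC, searched on both strands, were found in 1 of the 24 genes, Hmgcs1, and in 1.44% of the 27025 genes with a window. CCAAT, searched on both strands (the letters of neither motif contain the other), was found in 20 of the 24 genes (83.3%), and in 41.1% of all genes with a window. A match is a description of letters and not a binding site. The windows below are those of 3 genes that were lower in untreated KO than in untreated WT macrophages (Hmgcs1, Sc5d and Hsd17b7) and of 2 that went the other way in the interaction test (Pmvk and Ebp). They are written 5′ to 3′ on the strand of the gene, and capitals mark the 2 motifs. In Hmgcs1 the sterol regulatory letters TCACCCCAC begin at position -137 from the start site.
Hmgcs1, chr13:119690101-119690400, plus strand: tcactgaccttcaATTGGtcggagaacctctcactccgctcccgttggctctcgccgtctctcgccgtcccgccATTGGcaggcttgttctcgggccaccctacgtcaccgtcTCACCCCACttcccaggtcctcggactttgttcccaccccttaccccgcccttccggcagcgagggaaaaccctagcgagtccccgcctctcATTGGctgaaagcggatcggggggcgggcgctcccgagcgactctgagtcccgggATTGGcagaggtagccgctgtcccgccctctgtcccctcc
Sc5d, chr9:42264251-42264550, minus strand: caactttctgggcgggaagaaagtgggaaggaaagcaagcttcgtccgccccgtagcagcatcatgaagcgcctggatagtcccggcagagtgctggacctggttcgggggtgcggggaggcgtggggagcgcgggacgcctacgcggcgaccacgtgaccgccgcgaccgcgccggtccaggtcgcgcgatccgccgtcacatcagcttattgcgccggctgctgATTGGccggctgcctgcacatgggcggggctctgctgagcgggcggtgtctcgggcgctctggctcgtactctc
Hsd17b7, chr1:169969156-169969455, minus strand: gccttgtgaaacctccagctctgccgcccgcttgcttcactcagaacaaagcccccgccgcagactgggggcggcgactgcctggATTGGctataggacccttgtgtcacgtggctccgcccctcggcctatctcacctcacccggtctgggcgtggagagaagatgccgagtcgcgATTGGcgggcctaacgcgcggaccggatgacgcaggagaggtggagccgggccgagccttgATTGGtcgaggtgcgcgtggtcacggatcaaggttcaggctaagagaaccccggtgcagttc
Pmvk, chr3:89454291-89454590, plus strand: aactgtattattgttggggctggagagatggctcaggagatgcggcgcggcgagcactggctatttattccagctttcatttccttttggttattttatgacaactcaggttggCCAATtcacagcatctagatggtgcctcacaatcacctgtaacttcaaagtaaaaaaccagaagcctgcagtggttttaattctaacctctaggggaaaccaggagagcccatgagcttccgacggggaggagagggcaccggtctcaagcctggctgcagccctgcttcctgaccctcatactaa
Ebp, chrX:8193463-8193762, minus strand: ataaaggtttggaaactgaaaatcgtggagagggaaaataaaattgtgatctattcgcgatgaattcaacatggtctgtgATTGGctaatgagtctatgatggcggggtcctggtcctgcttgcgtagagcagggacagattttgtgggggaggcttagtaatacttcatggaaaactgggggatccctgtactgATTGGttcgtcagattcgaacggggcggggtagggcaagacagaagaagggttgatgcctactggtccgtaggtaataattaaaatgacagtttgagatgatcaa
The Hmgcs1 window held 4 CCAAT boxes, that of Hsd17b7 held 3, that of Ebp 2 and those of Sc5d and Pmvk 1 each. Pmvk has a further window, chr3:89459321-89459620, which held none. CCAAT boxes were thus present in windows of genes called in either direction of the interaction test.

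The pathway was expressed unevenly. Per kilobase of the deposited exon length, the mean level over the 18 libraries was highest for Mvd (40.4 CPM per kb), which makes isopentenyl diphosphate, Ebp (40.0), a sterol isomerase, and Srebf2 (32.5). It was lowest for Idi1 (0.453 CPM per kb), which interconverts the isoprene units, Hsd17b7 (0.580), a ketosteroid reductase, and Mbtps2 (0.735). Idi1 was counted 2 to 85 times per library and Hsd17b7 2 to 194 times, so their values carry the largest counting error among the 28. Across libraries the ratio of the highest to the lowest CPM was smallest for Fdps, the farnesyl diphosphate synthase (2.27), and largest for Hsd17b7 (14.8). All 28 genes passed the filter on low counts in each comparison. The strand setting of the counting is not given in the sources used here, and exons of Fdps, Fdft1, Mbtps2, Tm7sf2 and Scap share 13.2% to 28.4% of their bases with another gene, those of Ggps1, Cyp51 and Lss 3.53% to 7.18%, so part of their reads is uncertain. The close copies Acat3 (0 to 11 counts) and Idi2 (0 counts) took few reads.

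**Figure D1:**
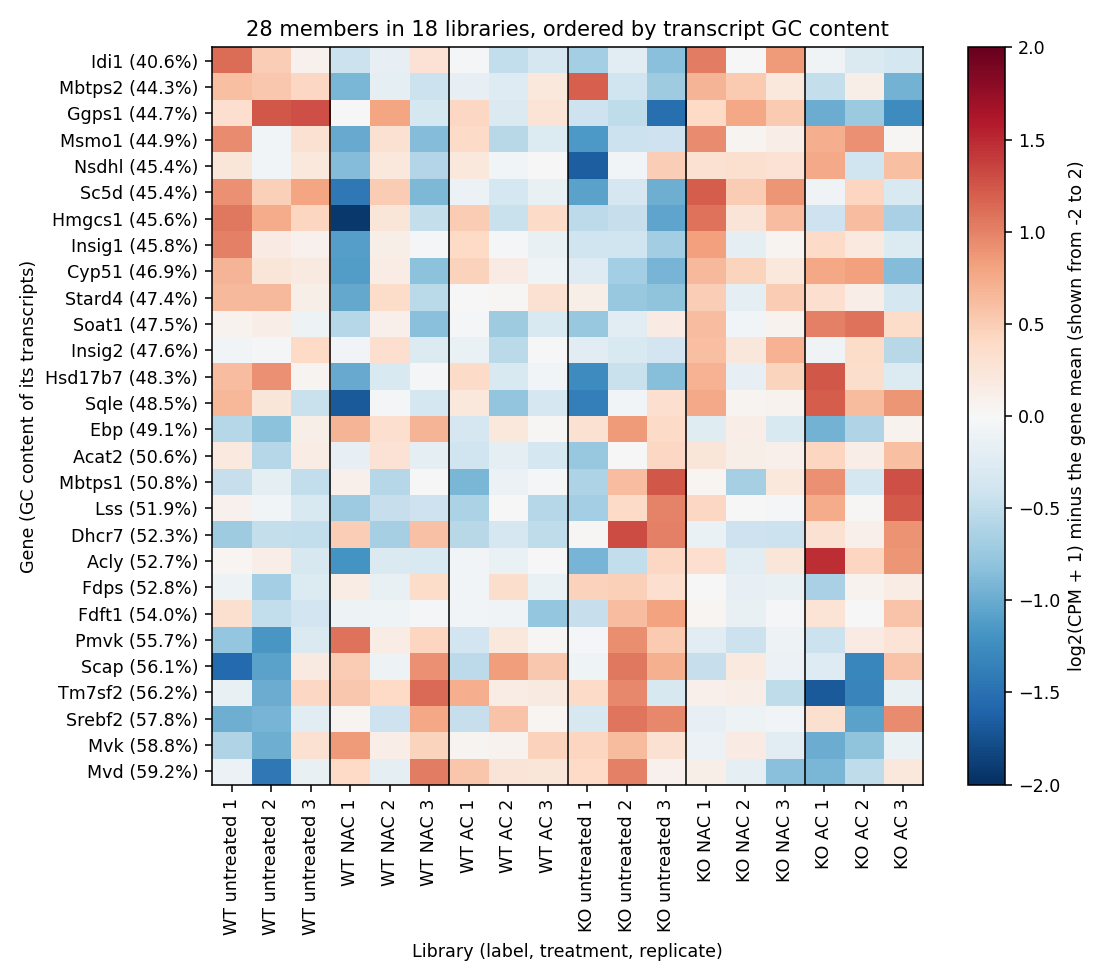
Heat map of log2(CPM + 1) minus each gene's mean, for the 28 genes in rows, ordered from low (top) to high (bottom) GC content of their transcripts, and the 18 libraries in columns. Colors run from 2 below (blue) to 2 above (red) the mean, and in untreated WT libraries the upper genes are mostly red while in untreated KO libraries they are mostly blue.

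In untreated macrophages 4 of the 28 genes were lower in KO than in WT by the quasi-likelihood test of edgeR (Benjamini-Hochberg adjusted over all genes), and none was higher. They were Ggps1, the geranylgeranyl diphosphate synthase, Hmgcs1, which makes HMG-CoA at the entry to the pathway, and Hsd17b7 and Sc5d of the late sterol steps. The 4 are 14.3% of the genes, beside 11.6% of 12101 genes called in this comparison, 8.56% in the lower direction. In bulk RNA, fewer cells of a type and less RNA per cell cannot be told apart.

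Hmgcs1 (ENSMUSG00000093930, chr13:119690462-119708086) was at 24.6, 19.6 and 15.5 CPM in the untreated WT libraries and at 7.55, 7.97 and 4.92 CPM in the untreated KO libraries. All 3 KO values lay below the WT values. The estimated change was -1.65 in log2 units (SE 0.44, adjusted p = 0.037, edgeR). Sc5d (ENSMUSG00000032018, chr9:42251595-42264256), the lathosterol oxidase, was at 18.8, 13.6 and 17.2 CPM in WT and at 4.025, 7.36 and 4.33 CPM in KO. The groups did not overlap, and the estimated change was -1.70 in log2 units (SE 0.45, adjusted p = 0.035, edgeR).

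Ggps1 (ENSMUSG00000021302, chr13:14052449-14063401) was at 13.9, 26.7 and 27.8 CPM in WT and at 7.80, 7.20 and 3.13 CPM in KO. WT replicate 1 was the lowest of its group and still above all KO libraries. The estimated change was -2.0 in log2 units (SE 0.50, adjusted p = 0.031, edgeR). Hsd17b7 (ENSMUSG00000026675, chr1:169949535-169969241) was at 4.51, 5.79 and 2.75 CPM in WT and at 0.503, 1.63 and 0.995 CPM in KO, where KO replicate 1 had 2 counts. Its groups did not overlap, and its log2 fold change of -2.04 (SE 0.62) had an adjusted p of 0.0499 in edgeR's test, at the threshold.

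The other 24 genes did not pass. Of all 28, 12 had a fold change above 0 and 16 below, with a median of -0.34, while the median over all genes tested was 0.06. Groups were apart for 15 of the 28 (53.6%), beside 40.9% of all genes. Dhcr7, the last reductase of the pathway, was at 12.3, 14.5 and 14.4 CPM in WT and at 20.9, 52.5 and 42.3 CPM in KO (log2 fold change 1.42, SE 0.45, adjusted p = 0.054, edgeR). Srebf2 was at 73.7, 76.8 and 125.8 CPM in WT and at 117.0, 310.4 and 286.6 CPM in KO. Only KO replicate 1 lay within the WT range, and the estimated change was 1.31 in log2 units (SE 0.46, adjusted p = 0.070, edgeR).

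The untreated comparison rested on which libraries entered it. Without KO untreated replicate 1, 17 of the 28 genes were called, 10 lower and 7 higher, among them all 4 named above, and 46.3% of all genes were called. The log2 fold changes were then -1.80 for Hmgcs1, -1.65 for Sc5d, -2.29 for Ggps1 and -1.91 for Hsd17b7, and Dhcr7 (1.62) and Srebf2 (1.56) were among those called higher. With each of the other 5 libraries left out in turn the count was 0, beside 0% to 1.98% of all genes. The fold changes also differed by base composition. Across the 28 genes, log2 fold change and GC content of the transcripts had a Pearson r of 0.825, and across all genes tested 0.652; genes share their libraries and are not independent. The mean GC content of the counted transcripts was 52.5% to 53.0% in the untreated WT libraries and 54.2% to 55.3% in the untreated KO libraries. With a GC and length offset fitted in each library, 0 of the 28 genes and 0 of all genes were called, the median of the 28 was -0.049, and Hmgcs1, Sc5d, Ggps1 and Hsd17b7 had log2 fold changes of -0.64, -0.67, -0.95 and -1.49. The offset takes out differences between libraries that go with GC content or length, technical or biological. A call lost under it, here or below, therefore does not show which of these it was. Scaling also mattered. With library totals alone 9 of the 28 were lower and none higher, beside 19.9% of all genes called, and with the size factors of DESeq2 3 were lower and 1, Dhcr7, higher, beside 13.5%. Of all genes called 2.25% and 45.8% were higher, against 26.2% with the TMM factors.

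**Figure D2:**
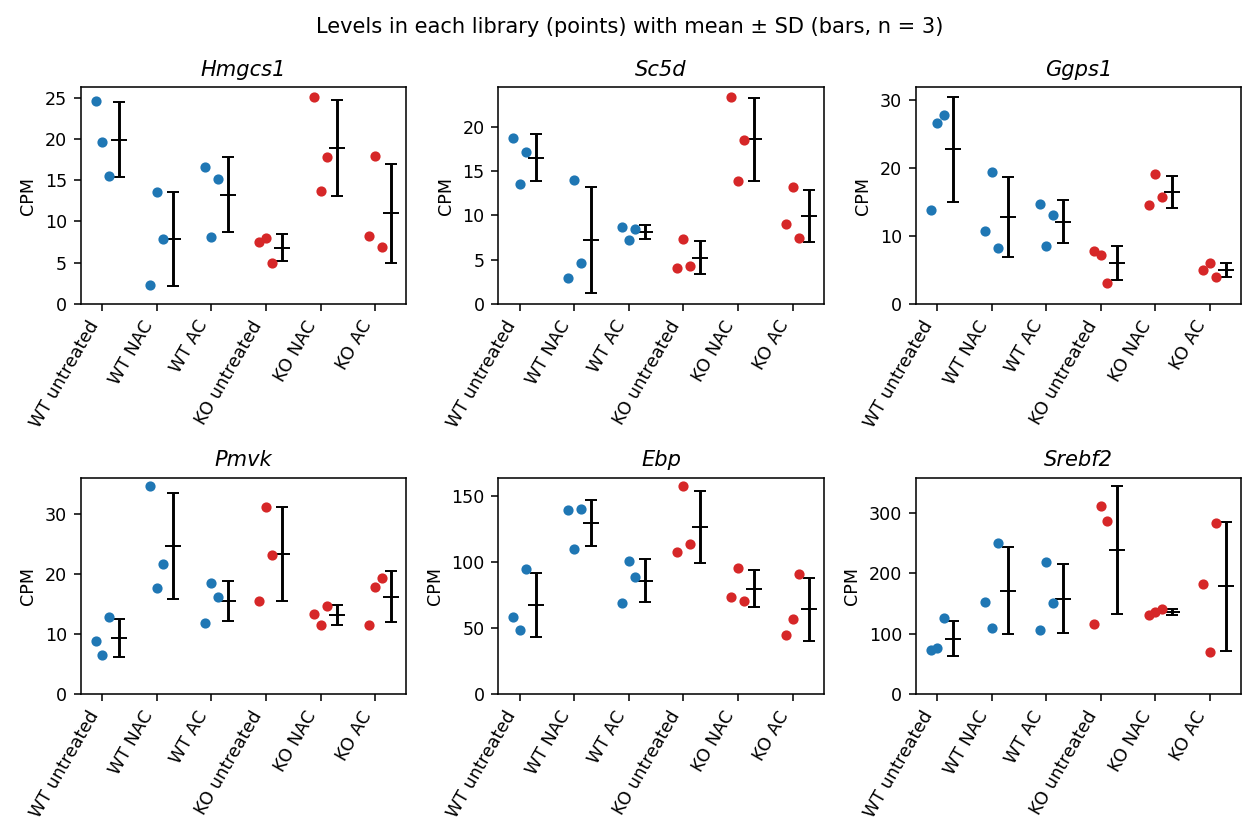
Level in CPM of Hmgcs1, Sc5d, Ggps1, Pmvk, Ebp and Srebf2 in each library (points, blue for WT and red for KO), by group, with the mean and SD of the 3 libraries as black bars. Hmgcs1 in untreated KO libraries stays at or below 7.97 CPM while untreated WT libraries are at 15.5 CPM or above, and with NACs the KO libraries lie above the WT libraries by a narrow margin (13.64 against 13.58 CPM), a difference that did not pass edgeR's test (adjusted p = 0.15).

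With NACs none of the 28 genes passed edgeR's test between genotypes, beside 0.864% of 11923 genes called; 14 of the 28 had an unadjusted p under 0.05 (24.2% of all genes did), the Wald test of DESeq2 and limma-voom called 0 (3.64% and 0.319% of all genes), and the smallest adjusted p was 0.12. The fold changes were above 0 for 19 of 28, with a median of 0.59 against 0.00 over all genes. Groups were apart for 10 of the 28 genes (35.7%), beside 27.0% of all genes. Sc5d was at 2.91, 14.0 and 4.66 CPM in WT and at 23.4, 13.9 and 18.5 CPM in KO. WT replicate 2 was apart from the other WT libraries and inside the KO range, and the estimated change was 1.39 in log2 units (SE 0.47, adjusted p = 0.12, edgeR). Mbtps2, the site-2 protease, was at 3.14, 5.80 and 4.79 CPM in WT and at 11.4, 10.2 and 7.97 CPM in KO, without overlap (log2 fold change 1.12, SE 0.39, adjusted p = 0.12, edgeR). Without WT NAC replicate 2, 12 of the 28 were called, 11 higher and 1, Pmvk, lower, beside 24.6% of all genes. The sign over GC content was opposite to that in untreated macrophages, with r = -0.812 across the 28 genes, and the mean GC content of the counts was 53.6% to 54.7% in WT and 52.8% to 53.4% in KO libraries. With the GC and length offset the median of the 28 was 0.18 and r was -0.468.

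With ACs, the condition in which macrophages clear apoptotic cells, none of the 28 genes passed edgeR's test between genotypes, beside 3.75% of 12304 genes called. Of the 28, 9 had an unadjusted p under 0.05 (24.3% of all genes did), the Wald test of DESeq2 called 4 (11.2% of all genes) and limma-voom 0 (3.28%), and the median log2 fold change was 0.12 against -0.01 over all genes. Groups were apart for 11 of the 28 genes (39.3%), beside 28.3% of all genes. Tm7sf2, a sterol reductase, was at 60.2, 39.9 and 40.8 CPM in WT and at 10.6, 13.8 and 32.5 CPM in KO. All KO libraries were lower (log2 fold change -1.38, SE 0.45, adjusted p = 0.084, edgeR). Ggps1 was at 14.7, 8.57 and 13.1 CPM in WT and at 4.93, 5.97 and 3.92 CPM in KO, again without overlap (log2 fold change -1.33, SE 0.45, adjusted p = 0.091, edgeR). Soat1, which esterifies cholesterol for storage, was at 106.8, 66.9 and 89.2 CPM in WT and at 221.8, 234.1 and 141.6 CPM in KO, higher in all KO libraries (log2 fold change 1.15, SE 0.40, adjusted p = 0.099, edgeR). Hmgcs1, lower in untreated KO macrophages, was at 16.6, 8.06 and 15.1 CPM in WT and at 8.24, 17.9 and 6.89 CPM in KO with ACs, and Sc5d at 8.70, 7.23 and 8.50 CPM and at 9.08, 13.3 and 7.50 CPM. Both overlapped between genotypes. Here r with GC content was -0.192 across the 28 genes, and with the GC and length offset Soat1 (0.96, adjusted p = 0.041, edgeR) and Tm7sf2 (-1.55, adjusted p = 0.037) were called and the other 26 were not, beside 9.74% of all genes, and the median of the 28 was 0.19. With that offset and the replicate number as a block 0 of the 28 were called, beside 2.68% of all genes. Without KO AC replicate 3, Tm7sf2 alone was called, lower, beside 2.68% of all genes. Without KO AC replicate 2, Acly, Lss, Mbtps1 and Sqle were called higher, and 13.3% of all genes were called.

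**Figure D3:**
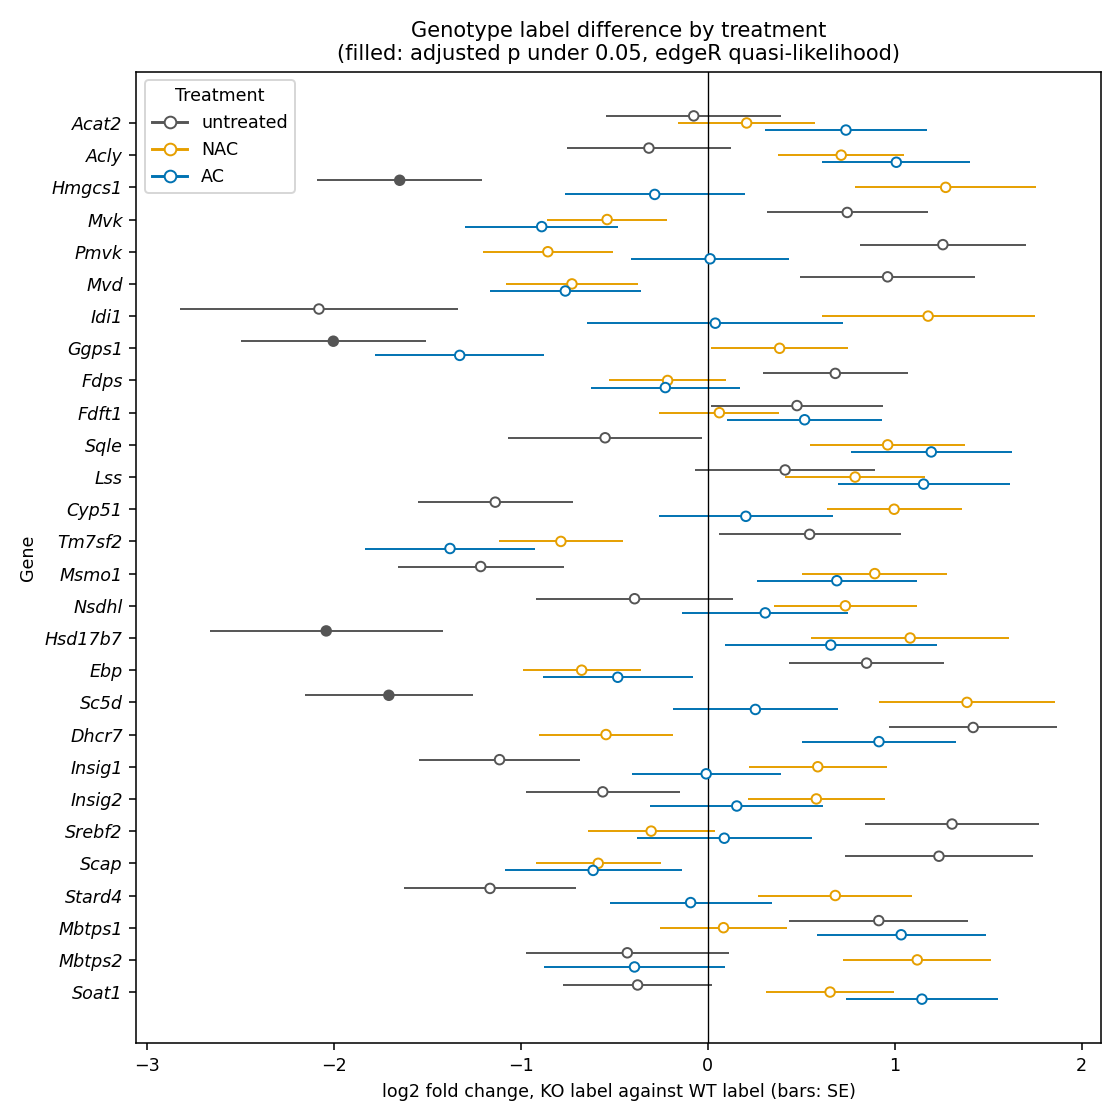
Log2 fold change of KO against WT (horizontal axis, bars are SE) for the 28 genes in the order of the pathway, untreated (grey), with NACs (orange) and with ACs (blue), where filled points have an adjusted p under 0.05. The 4 filled points are all in untreated macrophages and lie at -1.65 or below.

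The other genes called in any comparison also had values in the AC groups. Pmvk was at 12.0, 18.5 and 16.2 CPM in WT and at 11.5, 17.9 and 19.5 CPM in KO, and Ebp at 69.1, 100.7 and 88.7 CPM and at 44.9, 57.3 and 91.1 CPM. Cyp51 was at 34.1, 27.6 and 23.1 CPM in WT and at 42.6, 44.2 and 13.1 CPM in KO. These 3 genes overlapped between genotypes. Msmo1 was at 32.9, 16.8 and 20.6 CPM in WT and at 42.4, 48.3 and 25.5 CPM in KO, and Hsd17b7 at 3.67, 1.92 and 2.47 CPM and at 7.47, 3.58 and 1.96 CPM. Idi1 was at 1.36, 0.704 and 0.909 CPM in WT and at 1.27, 0.968 and 0.879 CPM in KO. These too overlapped, and KO replicate 3 was the lowest KO library for all 3. Dhcr7 was at 13.7, 16.2 and 14.3 CPM in WT and at 25.8, 22.3 and 39.3 CPM in KO, higher in all KO libraries (log2 fold change 0.92, adjusted p = 0.18, edgeR). Mbtps2 was at 5.98, 5.50 and 7.98 CPM in WT and at 4.58, 7.45 and 3.04 CPM in KO, and Stard4 at 8.91, 9.15 and 11.4 CPM and at 11.6, 10.0 and 6.83 CPM, with overlap.

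The response to coculture was examined within each genotype. Comparisons against untreated macrophages share their untreated libraries, and those with NACs share the NAC libraries, so they are given side by side and not as separate evidence. Between ACs and NACs in WT none of the 28 genes was called, and 0% of 11844 genes were. None of the 28 had an unadjusted p under 0.05 (all genes 4.16%), and DESeq2 and limma-voom called 0. Cyp51, the lanosterol demethylase (log2 fold change 0.75, SE 0.40) and Dhcr7 (-0.69, SE 0.38) had the smallest p, both with an adjusted p of 0.90 in edgeR's test. In KO, 1 of the 28 genes was called between ACs and NACs, beside 7.38% of 12244 genes, 4.73% in the lower direction. It was Ggps1, at 14.5, 19.1 and 15.8 CPM with NACs and at 4.93, 5.97 and 3.92 CPM with ACs. The groups were far from overlapping, and the estimated change was -1.71 in log2 units (SE 0.41, adjusted p = 0.012, edgeR). With the GC and length offset it was -1.14 (adjusted p = 0.043, edgeR), so this call held. It was lost without KO NAC replicate 2 or KO AC replicate 1, and without KO AC replicate 2 the count was 7, beside 23.9% of all genes.

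For ACs against no treatment none of the 28 genes passed in either genotype, and 0% of 12199 genes in WT and 0% of 12136 in KO were called. An unadjusted p under 0.05 was found for 6 of the 28 in WT and 7 in KO, beside 12.7% and 14.5% of all genes, while DESeq2 and limma-voom called 0 in both. The smallest p belonged to Sc5d (-1.10, SE 0.30) and Ggps1 (-0.99, SE 0.35) in WT, both with an adjusted p of 0.39, and to Hsd17b7 (2.12, SE 0.70) and Msmo1, a sterol methyl oxidase (1.43, SE 0.51), in KO, both with an adjusted p of 0.31 in edgeR's test. The r with GC content across the 28 genes was 0.885 in WT and -0.595 in KO. Without KO untreated replicate 1, 0 of the 28 were called in KO, beside 0.127% of all genes, and Hsd17b7 (1.89) and Msmo1 (1.23) had adjusted p values of 0.27 and 0.31 in edgeR's test.

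Against no treatment, Hmgcs1 was called lower with NACs in WT and higher in KO. In WT 2 of the 28 genes were called, beside 8.52% of 11912 genes (4.19% higher and 4.33% lower). Hmgcs1 fell from the untreated values above to 2.24, 13.6 and 7.84 CPM, all below the untreated libraries, with an estimated change of -1.39 in log2 units (SE 0.43, adjusted p = 0.039, edgeR). Pmvk (ENSMUSG00000027952, chr3:89454541-89469013), the phosphomevalonate kinase, rose from 8.82, 6.57 and 12.9 CPM untreated to 34.6, 17.7 and 21.8 CPM with NACs, without overlap (log2 fold change 1.34, SE 0.39, adjusted p = 0.030, edgeR). In KO 2 of the 28 were called, both higher, beside 6.54% of 12143 genes (6.20% higher). Hmgcs1 rose to 25.1, 13.6 and 17.8 CPM (log2 fold change 1.66, SE 0.42, adjusted p = 0.047, edgeR) and Sc5d to 23.4, 13.9 and 18.5 CPM (2.00, SE 0.42, adjusted p = 0.037, edgeR), both without overlap with untreated KO libraries. The median log2 fold change of the 28 was -0.53 in WT and 0.49 in KO, against -0.10 and -0.03 over all genes. The r with GC content was 0.834 in WT and -0.819 in KO, and with the offset the medians were -0.15 and 0.059, and 0 of the 28 and 0 of all genes were called in either genotype. Without WT NAC replicate 2 the count in WT was 17 (34.2% of all genes), and without KO untreated replicate 1 that in KO was 16 (35.5% of all genes), with Hmgcs1 at 1.67 and Sc5d at 1.79. The count in WT was 0 without WT untreated replicate 1 or 2 or WT NAC replicate 1 or 3, beside 0.169% to 0.375% of all genes, and that in KO was 0 without each of the other 5 libraries in turn, beside 0% of all genes. With library totals alone it was 0 in WT and 9 in KO, beside 0% and 17.4% of all genes. With the size factors of DESeq2, and with the replicate number as a block, it was 0 in KO, beside 0% of all genes in both, so the KO calls of Hmgcs1 and Sc5d were lost.

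The difference between the 2 NAC responses was tested as an interaction of genotype with NACs against no treatment. This test passed for 14 of the 28 genes (50%), beside 34.8% of 13005 genes. In 10 of them the KO response was the higher, beside 22.1% of all genes, and in 4 the lower, beside 12.8%. The median over the 28 was 1.27, or 0.21 with the GC and length offset, and over all genes 0.12. The values are differences of log2 fold changes, and a positive value means that NACs raised a gene more, or lowered it less, in KO than in WT.

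In the mevalonate arm, 3 of 5 genes were called, beside 34.8% of all genes. Hmgcs1 had a difference of 3.19 (SE 0.71, adjusted p = 0.0029, edgeR) and Idi1 of 3.56 (SE 0.92, adjusted p = 0.0068). Idi1 was at 4.18, 2.38 and 1.54 CPM in untreated WT, 0.785, 1.14 and 1.93 CPM in WT with NACs, 0.503, 1.07 and 0.348 CPM in untreated KO and 3.87, 1.39 and 3.32 CPM in KO with NACs. These are low levels, and the WT groups overlapped. Pmvk had a difference of -1.86 (SE 0.55, adjusted p = 0.014, edgeR), with 15.6, 31.2 and 23.2 CPM in untreated KO and 13.5, 11.5 and 14.8 CPM in KO with NACs. Its groups did not overlap in either genotype. Mvd (-1.44) and the mevalonate kinase gene Mvk (-1.06) had adjusted p values of 0.058 and 0.10. In the prenyl diphosphate pair, Ggps1 had a difference of 2.64 (SE 0.62, adjusted p = 0.0040, edgeR) and Fdps, with -0.66, an adjusted p of 0.26. The WT values of Ggps1 with NACs were 10.8, 19.4 and 8.21 CPM and overlapped those of untreated WT, while in KO they did not overlap.

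Among the 8 genes from lanosterol to cholesterol, 6 were called, beside 34.8% of all genes. With the GC and length offset only Ebp, Dhcr7 and Sc5d of these were still called. The difference was 3.41 for Hsd17b7 (SE 0.81, adjusted p = 0.0043), 3.36 for Sc5d (SE 0.70, adjusted p = 0.0019), 2.37 for Cyp51 (SE 0.57, adjusted p = 0.0043) and 2.35 for Msmo1 (SE 0.62, adjusted p = 0.0078), all in edgeR's test. Cyp51 was at 40.1, 29.2 and 27.96 CPM in untreated WT and at 10.8, 27.3 and 13.6 CPM in WT with NACs. It was at 20.4, 15.1 and 12.4 CPM in untreated KO and at 39.0, 33.9 and 28.7 CPM in KO with NACs. The groups did not overlap in either genotype. Msmo1 was at 49.2, 24.1 and 31.2 CPM in untreated WT, 12.0, 31.0 and 13.3 CPM in WT with NACs, 10.8, 18.4 and 18.5 CPM in untreated KO and 49.1, 26.0 and 27.6 CPM in KO with NACs, with an overlap in WT only. Hsd17b7 was at 0.785, 1.91 and 2.49 CPM in WT with NACs and at 4.80, 2.19 and 3.87 CPM in KO with NACs, below the untreated libraries in WT and above them in KO. Ebp and Dhcr7 went the other way, with differences of -1.29 (SE 0.47, adjusted p = 0.038) and -1.70 (SE 0.57, adjusted p = 0.026) in edgeR's test. Ebp was at 58.4, 49.0 and 94.9 CPM in untreated WT and at 139.4, 110.0 and 140.4 CPM in WT with NACs, and at 107.9, 158.0 and 114.1 CPM in untreated KO and 73.7, 96.0 and 70.4 CPM in KO with NACs. Again the groups did not overlap in either genotype. Dhcr7 was at 29.3, 12.7 and 31.35 CPM in WT with NACs and at 18.6, 15.2 and 15.1 CPM in KO with NACs; its WT groups overlapped and its KO groups did not. Late sterol enzymes were thus called in both directions of the interaction, those below 0 not with library totals alone. None of the 3 genes from squalene to lanosterol (Fdft1, Sqle and Lss) was called, with differences of -0.17 to 1.76, nor were Acat2 and Acly, which handle acetyl-CoA (0.51 and 1.26).

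Of the 6 genes for SREBP2 and its processing, 3 were called, beside 34.8% of all genes. Insig1, itself a target of SREBP2, was at 67.8, 37.6 and 35.6 CPM in untreated WT and at 15.0, 36.4 and 32.7 CPM in WT with NACs, with an overlap. It was at 24.9, 25.0 and 20.2 CPM in untreated KO and at 59.9, 29.2 and 34.8 CPM in KO with NACs, without overlap. The difference was 1.96 (SE 0.59, adjusted p = 0.015, edgeR). Mbtps2 had a difference of 1.78 (SE 0.69, adjusted p = 0.048, edgeR). It was at 10.7, 10.3 and 9.39 CPM in untreated WT and at 16.9, 4.905 and 3.73 CPM in untreated KO, where KO replicate 1 was the highest of all 18 libraries.

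Scap had a difference of -1.58 (SE 0.58, adjusted p = 0.040, edgeR), from 29.0, 41.2 and 99.2 CPM to 125.6, 81.7 and 166.2 CPM in WT and from 82.3, 183.8 and 143.8 CPM to 63.7, 100.5 and 80.5 CPM in KO. Groups overlapped in both genotypes. Srebf2 itself was at 153.0, 109.8 and 250.7 CPM in WT with NACs and at 131.3, 136.0 and 140.5 CPM in KO with NACs, and its difference of -1.36 (SE 0.55) had an adjusted p of 0.058 in edgeR's test. With ACs, Srebf2 was at 105.8, 217.9 and 150.8 CPM in WT and at 182.5, 69.5 and 282.9 CPM in KO, and Scap at 60.8, 156.6 and 127.3 CPM and at 73.5, 34.9 and 130.1 CPM. Those values overlapped widely between genotypes. Insig2 lay between 5.14 and 13.7 CPM in all libraries, and its difference of 1.38 (SE 0.54) had an adjusted p of 0.050 that was just above the threshold. Insig2 was at 7.69, 7.86 and 10.9 CPM in untreated WT, 6.79, 6.34 and 5.97 CPM in untreated KO, 7.73, 10.5 and 6.47 CPM in WT with NACs and 12.8, 9.56 and 13.7 CPM in KO with NACs. With ACs it was at 7.23, 5.25 and 8.11 CPM in WT and at 7.58, 10.6 and 5.14 CPM in KO, with overlap. Insig1 with ACs was at 44.2, 32.4 and 30.05 CPM in WT and at 44.0, 38.2 and 27.5 CPM in KO, nearly the same range. Stard4, which carries cholesterol between membranes, had a difference of 2.09 (SE 0.66, adjusted p = 0.019, edgeR), and Soat1 of 1.27 (adjusted p = 0.062). Stard4 was at 14.7, 14.6 and 9.78 CPM in untreated WT, 3.92, 11.8 and 5.85 CPM in WT with NACs, 9.81, 4.905 and 4.73 CPM in untreated KO and 13.0, 7.77 and 13.3 CPM in KO with NACs. Its groups overlapped in both genotypes.

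The direction of the interaction differed by base composition. The 10 genes called higher had transcripts of 40.6% to 48.3% GC and the 4 called lower of 49.1% to 56.1%. Across the 28 genes r was -0.852, and across all genes -0.585. With the GC and length offset, 3 of the 28 genes were called, Ebp (-2.03, adjusted p = 0.013), Dhcr7 (-1.69, adjusted p = 0.034) and Sc5d (1.71, adjusted p = 0.050), all in edgeR's test and the last at the threshold, and the share of all genes called was 10.5%. The r across the 28 was then -0.437. Mbtps2 changed sign under this offset, to -0.038. Without KO untreated replicate 1, 19 of the 28 were called, beside 46.2% of all genes, with Hmgcs1 at 2.96, Sc5d at 2.93, Hsd17b7 at 2.88 and Dhcr7 at -2.27. The other 10 genes named as called above remained called, with Cyp51, Ggps1, Idi1, Insig1, Mbtps2, Msmo1 and Stard4 at 1.71 to 3.15 and Ebp, Pmvk and Scap at -1.65 to -2.35. Without WT NAC replicate 2 the count was 20, beside 39.0% of all genes, and without WT untreated replicate 1, WT NAC replicate 1 or KO NAC replicate 1 the count was 9, beside 22.4% to 24.4% of all genes. Scaling moved the lower calls. With library totals alone 14 were higher and none lower, beside 30.8% of all genes called, and Pmvk, Ebp, Dhcr7 and Scap, still below 0, had adjusted p values of 0.091 to 0.25. With the size factors of DESeq2, 9 were higher and 7 lower, beside 38.5% of all genes. Of all genes called, 63.3% were higher with the TMM factors, 90% with library totals alone and 45.6% with the size factors, and the median over all genes was 0.12, 0.70 and -0.27.

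**Figure D4:**
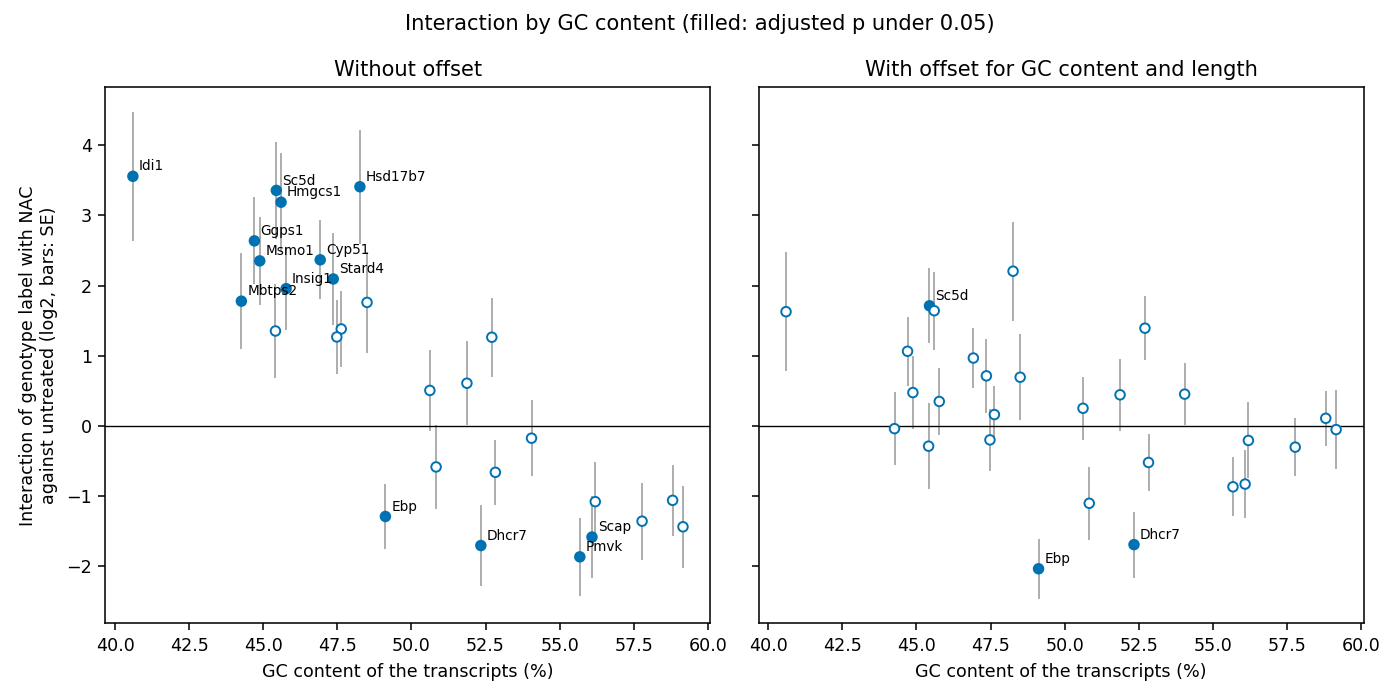
Interaction of genotype with NACs against no treatment (vertical axis, log2, bars are SE) by GC content of the transcripts (horizontal axis, percent) for the 28 genes, without (left) and with (right) a GC and length offset. Filled points have an adjusted p under 0.05, 14 on the left and 3 on the right.

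The corresponding interactions with ACs gave no call among the 28. For ACs against NACs 0.0765% of 13076 genes were called, 4 of the 28 had an unadjusted p under 0.05 (20.0% of all genes did), DESeq2 called 1 (5.83% of all genes) and limma-voom 0 (0.0535%). Ggps1 (-1.66, SE 0.54, adjusted p = 0.11) and Dhcr7 (1.56, SE 0.53, adjusted p = 0.12) had the smallest p in edgeR's test. For ACs against no treatment 0% of 13225 genes were called, 13 of the 28 had an unadjusted p under 0.05 (24.1% of all genes did), DESeq2 called 7 (9.26% of all genes) and limma-voom 0 (0%). Sc5d (1.92, SE 0.57) and Hsd17b7 (2.64, SE 0.81) had the smallest p, both with an adjusted p of 0.11 in edgeR's test. Without WT NAC replicate 2 the count for ACs against NACs was 3, beside 5.63% of all genes, and without KO AC replicate 3 that for ACs against no treatment was 6, beside 8.11%. Without KO untreated replicate 1 the latter count was 0, beside 0% of all genes, with Sc5d at 1.98 and Hsd17b7 at 2.65. The r with GC content across the 28 genes was 0.569 and -0.782.

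Neighboring pathways were counted in the same fits. Of 57 tested genes in 5 further lists, 25 passed the interaction with NACs, 15 higher and 10 lower, where 34.8% of all genes passed (22.1% higher and 12.8% lower). In the prenylation list 4 of 11 were higher and 1 lower, among the former Chm, a Rab escort protein (3.42, SE 0.64, adjusted p = 0.0011, edgeR). In the list of SREBP1 and fatty acid synthesis 2 of 13 were higher and 4 lower, among the latter Srebf1 (-1.62, SE 0.47, adjusted p = 0.013, edgeR) and Fasn, the fatty acid synthase (-1.58, SE 0.59, adjusted p = 0.043). In the LXR and efflux list 4 of 11 were higher, among them Abca1, a cholesterol exporter (3.12, SE 0.59, adjusted p = 0.0012, edgeR), and 3 lower. The list of sterol transport and lysosomal release had 2 of 13 in each direction. That of the degradation of pathway proteins had 3 of 9 higher and none lower. Scaling moved the split of the 57 genes. Library totals alone gave 18 higher and 1 lower, beside 30.8% of all genes called. The size factors of DESeq2 gave 11 higher and 14 lower, beside 38.5%. In untreated macrophages, with the TMM factors, 7 of 56 genes of these lists passed between genotypes, 3 higher and 4 lower, beside 11.6% of all genes. Library totals alone gave 0 higher and 11 lower, beside 19.9% of all genes called. The size factors of DESeq2 gave 5 higher and 4 lower, beside 13.5%. With ACs and the TMM factors 5 of 57 passed (2 higher and 3 lower), beside 3.75%, and with NACs 1 of 56, beside 0.864%. With the GC and length offset 11 of 57 genes passed between genotypes with ACs, 5 higher and 6 lower, beside 9.74% of all genes. The offset left 0 of 56 in untreated macrophages and 0 of 56 with NACs, beside 0% and 0.00839% of all genes. In the interaction 8 of the 57 genes passed under the offset, 4 in each direction, beside 10.5% of all genes. Of the genes named, Abca1 (2.01, adjusted p = 0.021) was still called under the offset, while Chm (1.36), Srebf1 (-0.51) and Fasn (-0.46) were not, and with library totals alone Srebf1 and Fasn were not called either. Without KO untreated replicate 1, 29 of 57 passed the interaction, these 4 genes included, beside 46.2% of all genes, and 31 of 57 passed in untreated macrophages, beside 46.3%.

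Markers of other cells varied between the same groups. Of 5 B cell genes, 1 to 3 passed the filter on low counts in each comparison, so their summed level is a coarse measure. The summed level of the 5 was 1.79 to 4.67 CPM in untreated WT and 5.16 to 18.1 CPM in WT with NACs. It was 6.17 to 14.3 CPM in untreated KO and 1.77 to 4.38 CPM in KO with NACs. Among these groups it was thus lower where Hmgcs1 and Sc5d were higher. With ACs it was 2.41 to 5.82 CPM in WT and 3.41 to 6.42 CPM in KO. The relation did not extend to WT with ACs, where Sc5d (8.70, 7.23 and 8.50 CPM) lay below untreated WT. The summed level of 8 granulocyte genes ranged from 221.1 to 1262 CPM over all libraries. That of 5 fibroblast genes ranged from 4.31 to 221.7 CPM and of 8 proliferation genes from 239.1 to 552.0 CPM. The 4 T and NK cell genes and 5 dendritic cell genes summed to at most 2.09 and 2.73 CPM. Of 38 marker genes tested in the interaction with NACs, 8 passed, beside 34.8% of all genes. They were Lyz2 (3.39), Pcna (1.96) and Itgam (1.95), which were higher, and Cd14 (-1.82), Ltf (-1.85), Mcm2 (-1.96), Cd79b (-2.65) and Cd79a (-3.98), which were lower. Of the 38, library totals alone gave 4 higher and 1 lower, beside 30.8% of all genes called. The size factors of DESeq2 gave 2 higher and 6 lower, beside 38.5%. Lyz2, whose locus drives Cre in the KO mice, was also lower in untreated KO than WT macrophages (log2 fold change -1.94, adjusted p = 0.042, edgeR) and rose with NACs in KO (2.12, adjusted p = 0.038). Both calls held without KO untreated replicate 1 (-1.75 and 1.82) and were lost with the GC and length offset (-1.29 and 1.54) and with the replicate block, and that with NACs also with the size factors of DESeq2. In the interaction the offset left 4 of the 38 marker genes called, beside 10.5% of all genes. Lyz2 was among them (2.53, adjusted p = 0.031, edgeR). Without KO untreated replicate 1 the count in the interaction was 13 of 39, beside 46.2% of all genes. The mitochondrial share of counts was 0.496% to 0.620% in untreated WT, 0.294% to 0.404% in WT with NACs, 0.272% to 0.434% in untreated KO and 0.409% to 0.577% in KO with NACs. With ACs it was 0.341% to 0.480% in WT and 0.493% to 1.19% in KO, without overlap, and KO AC replicate 1 was the highest of all libraries. Between ACs and NACs in KO, where Ggps1 was called, 3 of 35 marker genes were higher with ACs, beside 7.38% of all genes called. They were the fibroblast genes Col1a2 (2.48, adjusted p = 0.025) and Col3a1 (2.26, adjusted p = 0.016) and the granulocyte gene Ltf (1.37, adjusted p = 0.038), in edgeR's test. The GC and length offset left 1 marker called (5.62% of all genes) and library totals alone 0 (4.72%). The replicate block gave 5, 4 higher and 1 lower (11.4%). Between genotypes with ACs the granulocyte gene Elane was lower in KO (-2.26, adjusted p = 0.042, edgeR). The part of these markers and shares in the results above was not tested.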

How the data were processed

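Total RNA of BMDMs was sequenced from 18 libraries, prepared with the NEBNext Ultra II kit. According to the submitters' processing notes, the authors used Trimmomatic 0.36, STAR 2.5.2b, featureCounts of Subread 1.5.2 and the GRCm38 genome. The strand setting is not given in the sources used here. The deposited values are whole read counts per gene and library, to which no normalization had been applied. Symbols came from GENCODE M21, which matched 48970 of 49315 identifiers. The start and end of 44772 were equal to it (for Hmgcs1, Ggps1, Fdft1 and Srebf2 they differed).

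For each comparison only the libraries compared entered the fit (edgeR 4.0.16 under R 4.3.3): filterByExpr (minimum count 10, minimum total count 15), TMM scaling, glmQLFit with robust dispersions and glmQLFTest, two-sided, adjusted by the Benjamini-Hochberg method over all genes tested, with a threshold of 0.05. Levels are CPM scaled by TMM over all 18 libraries. As alternatives, limma-voom (limma 3.58.1) or a Wald test (DESeq2 1.42.0) replaced the test, library totals or DESeq2 size factors replaced TMM, the filter was dropped or set to 10 counts in each library, the 18 libraries were fitted together, the replicate number was a block, a smooth offset per library for GC content and gene length was added (mgcv 1.9.3) without or with that block, and every library was omitted once. GC content was averaged over the transcripts of a gene. Counts with known folds were simulated for KO against WT with ACs and run through edgeR, DESeq2, limma-voom, the block and the offset. The simulated counts held no GC trend, outlying library or replicate effect, so they do not test how the calls depend on these. The interactions and the other settings were not simulated. Replicates are biological by the labels and came from 3 animals per group by the study's methods. Whether groups of a genotype share animals is not stated in the sources used here. Replicate pairs differed beyond counting error (chi-squared per degree of freedom 39.7 to 344).

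Full statistics were given, in each comparison, for the genes with an adjusted p under the threshold or, where none passed, for the 2 with the smallest p, and values in every library for genes called in any comparison, for Srebf2, Scap, Insig1 and Insig2 and for the 2 with the smallest p in each genotype comparison. The genes, the lists and the tests were chosen with earlier results of these data known. Soat1 with ACs and Dhcr7 in untreated macrophages were named after their values had been seen. Motifs were searched in RefSeq promoter windows of GRCm38.p6.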

Additional observations from a re-analysis of the deposited data

Results flagged for a closer look

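The response to NACs differed between the genotypes for 14 of the 28 genes by the interaction term of edgeR's quasi-likelihood test (Benjamini-Hochberg adjustment over all genes), and these are the genes to look at again. The difference of log2 fold changes, KO minus WT, was 3.56 for Idi1, 3.41 for Hsd17b7, 3.36 for Sc5d, 3.19 for Hmgcs1, 2.64 for Ggps1, 2.37 for Cyp51, 2.35 for Msmo1, 2.09 for Stard4, 1.96 for Insig1 and 1.78 for Mbtps2. It was -1.29 for Ebp, -1.58 for Scap, -1.70 for Dhcr7 and -1.86 for Pmvk. The same test passed for 34.8% of all genes. Under the GC and length offset the 3 calls left were Ebp, Dhcr7 and Sc5d. No outlier test was run on single values, as each group has 3 libraries.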

How the results depend on the processing

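The direction of the 37 named differences held in all but 2 of 695 refits, and 541 of these also stayed on the same side of the threshold, while 137 lost and 15 gained it. Some of the 37 were not called above, and for them the same side means still not called, so 541 overstates how far calls held. Hmgcs1 with NACs against no treatment in KO lost its call in 5 of 10 other settings and 5 of 6 fits without a library. For Sc5d in the interaction with NACs these losses were 1 of 10 and 0 of 12. Both reversals were of Mbtps2 in the interaction with NACs, at -0.038 with the GC and length offset and -0.011 with offset and block. The causes below were not tested.

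The number of the 28 genes called moved by over 1.5 times as follows, with the share of all genes in brackets. With the Wald test of DESeq2 it was 4 (11.2%) for KO against WT with ACs, 9 (27.4%) untreated, 5 (14.1%) and 7 (19.0%) for NACs against no treatment in WT and KO, and 1 (5.83%) and 7 (9.26%) for the interactions of genotype with ACs against NACs and against no treatment. With limma-voom it was 1 (2.79%) and 4 (13.3%) for NACs against no treatment in WT and KO. With library totals alone it was 9 (19.9%) for KO against WT untreated, and 0 (0%) and 9 (17.4%) for NACs against no treatment in WT and KO. With the size factors of DESeq2 it was 0 (0%) for NACs against no treatment in KO. Without a filter it was 2 (2.28%) for KO against WT with NACs, and 1 (1.74%) and 4 (6.30%) for NACs against no treatment in WT and KO. With a filter of 10 counts in each library it was 5 (14.5%) for NACs against no treatment in WT. With all 18 libraries in 1 fit it was 8 (24.2%) for KO against WT untreated and 0 (0%) for NACs against no treatment in WT. With the GC and length offset it was 2 (9.74%) for KO against WT with ACs, 0 (0%) untreated, 0 (0%) for NACs against no treatment in either genotype and 3 (10.5%) for its interaction. Under the settings not listed for them, the count was 3 to 5 (5.69% to 18.8%) for KO against WT untreated, 2 to 3 (6.20% to 9.18%) for NACs against no treatment in either genotype and 13 to 18 (15.1% to 46.0%) for its interaction, and otherwise as in the report.

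Correlations did not show a steady pairing of libraries by replicate number, but they cannot tell whether groups shared animals. Over 27 correlations of same-numbered libraries between groups, r ran from -0.493 to 0.559, 6 were over 0.1 and 6 libraries correlated best with their own number. With the replicate block the count was 1 (1.82%) for KO against WT with NACs, and 6 (15.0%) and 0 (0%) for NACs against no treatment in WT and KO. With block and offset it was 0 (0%) untreated, 2 (9.06%) for ACs against NACs in KO, 0 for NACs against no treatment in WT (0.0839%) and KO (0%) and 1 (7.43%) for its interaction.

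With each library left out in turn the count ran from 0 to 4 for KO against WT with ACs, 0 to 12 with NACs and 0 to 17 untreated, from 0 to 7 for ACs against NACs in KO, from 0 to 17 and 0 to 16 for NACs against no treatment in WT and KO, and from 0 to 3, 0 to 6 and 9 to 20 for the interactions of genotype with ACs against NACs, ACs against no treatment and NACs against no treatment. The share of all genes called moved with these counts and is given in brackets. Without KO untreated replicate 1 came the 17 for KO against WT untreated (46.3%) and the 16 (35.5%). Without WT NAC replicate 2 came the 17 for NACs against no treatment in WT (34.2%) and the 12 (24.6%). The 3 (5.63%) and the 20 (39.0%) also came without WT NAC replicate 2. The 4 (13.3%) and 7 (23.9%) came without KO AC replicate 2 and the 6 (8.11%) without KO AC replicate 3. The 9 (22.4% to 24.4%) came without WT untreated replicate 1, WT NAC replicate 1 or KO NAC replicate 1. Depth limits Idi1 and Hsd17b7, at as few as 2 counts.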
